A study of Homo sapiens with 12 samples.

Results

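SUDHL-1, 1 of the 4 anaplastic large cell lymphoma (ALCL) cell lines profiled in the study, was set against the other lines, DEL, Karpas299 and SUPM2. Its members were the 6 arrays labelled SUDHL-1, out of 12 in all, and they were compared with the 6 arrays of the other 3 lines. SUDHL-1 had 3 arrays of SP cells and 3 of MP cells. DEL, Karpas299 and SUPM2 each had 1 SP array and 1 MP array. SP stands for the side population and MP for the main population, which were separated by flow sorting after staining with a Hoechst dye that some cells pump out. All 4 lines were grown in RPMI medium with fetal calf serum to log phase, without a drug or a genetic change named in the labels, and total RNA was amplified and hybridised to Affymetrix arrays. Each line is 1 established culture. The series text says that cells were sorted in triplicate but names no separate cultures, so p-values cover how these samples varied. Among the SUDHL-1 arrays that variation may be technical only, whereas the spread among the other 6 arrays also holds differences between their 3 lines.

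ALCL is a lymphoma of activated, cytotoxic T-lineage cells that carries CD30 (TNFRSF8) on its surface and has often lost the T-cell receptor complex. In many cases a fusion of NPM1 with the ALK kinase drives STAT3, and JUNB, an AP-1 factor, is a known feature of the disease. Lines from different patients differ in which lineage, surface and signalling genes they keep. The ALK gene itself was not analysed here.

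Among 18417 genes measured, those farthest from the other lines were mostly genes with low signal in SUDHL-1. Values were array signals on the log2 scale after a second quantile normalization, where a difference of 1 is a doubling of signal, and no detection call was used, so the lowest signals cannot be told apart from array background. The median of all values was 5.55 and the upper quartile 7.27. An on/off gene was defined as one with a limma adjusted p under 0.05, a difference of at least 3 (8-fold), all 6 arrays of one side above the upper quartile and all 6 of the other side below the median. By this rule 26 genes were off in SUDHL-1 and on in the other lines (0.141% of all genes), and 5 genes were on in SUDHL-1 and off in the others (0.0271%). Without limits on the level, 102 genes were at least 8-fold lower in SUDHL-1 with no overlap between the 6 and the 6 arrays (0.554%), and 38 were at least 8-fold higher (0.206%). This second, looser rule was added after the values were seen, and with arrays centred on their median it gave 80 lower and 75 higher.

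The differences spread over much of the genome: 4162 genes were higher in SUDHL-1 (22.6% of those tested) and 3881 lower (21.1%), 43.7% together. Counts of called genes in each list below are to be read beside these shares. Line and array set were confounded, because the SUDHL-1 columns stood apart as deposited, with array medians of 4.83 to 5 against 5.24 to 5.35 on the other arrays, so a difference of the line and a difference of its array set cannot be told apart. The split of calls moved with the scaling: 23.8% of calls were higher in SUDHL-1 with the deposited values, 51.7% after the second quantile normalization and 65.8% with arrays centred on their median, and the median difference over all genes was -0.33, 0.014 and 0.13. Small differences below depend on this scaling and, unless stated, follow the second quantile normalization, so the on/off genes carry most weight. With 1 mean per line as the unit, 1 SUDHL-1 value stood against 3, and 0 genes passed adjustment with limma. By the same fit 3494 genes had an unadjusted p under 0.05, among them all 31 on/off genes, which had been selected on the same arrays. With the line as a random block, which lets arrays of 1 line be alike, some genes named below lost their call: SEMA3A, FGG, RFX5, NFYC, HLA-DOB, NLRC5, CD8A, LCK, LCP1, NPM1, GZMB, IL2RA, SPP1, CCR7, JUN, CXCL8, CBLB, LGALS3BP, ABCG2, CDKN2A and SPANXB1, with adjusted p from 0.0501 for CD8A to 0.217 for NPM1.

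The 6 SUDHL-1 arrays correlated with each other at 0.966 to 0.986 over all genes and with the other lines at 0.859 to 0.909, while the other lines correlated with each other at 0.921 to 0.951. Counting genes whose line means were at least 8-fold apart, SUDHL-1 differed from DEL at 200 genes, from Karpas299 at 210 and from SUPM2 at 357. Among the other lines the same count was 96 for DEL and Karpas299, 132 for DEL and SUPM2 and 159 for Karpas299 and SUPM2. SUDHL-1 was thus the line farthest from each of the others on these arrays. The count of on genes rested on the lines compared: without DEL 10 genes were on and 40 off, and without Karpas299 14 were on.

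**Figure D1:**
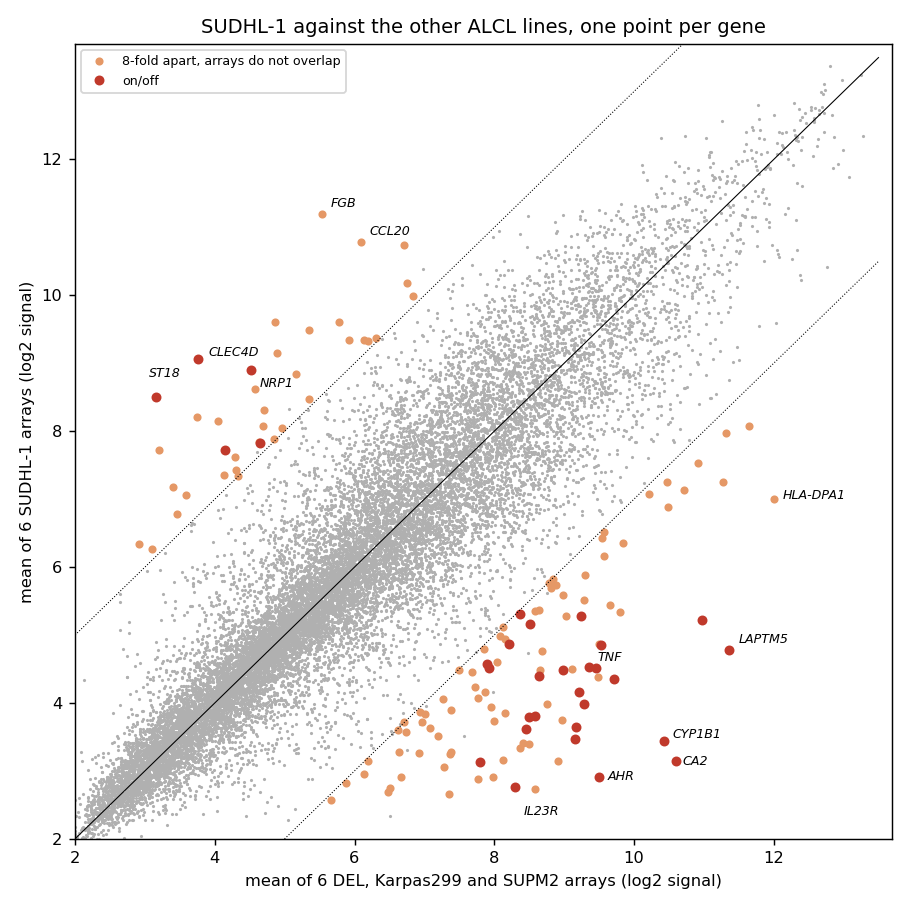
Mean log2 signal of each gene on the 6 SUDHL-1 arrays (vertical axis) against its mean on the 6 arrays of DEL, Karpas299 and SUPM2 (horizontal axis), with the dotted lines 8-fold from equality. The 26 off genes (red, lower right) outnumber the 5 on genes (red, upper left), and CA2, CYP1B1, AHR and LAPTM5 lie farther from the diagonal than any on gene.

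The 5 genes on in SUDHL-1 were ST18, CLEC4D, NRP1, KIAA0825 and ADAM22. ST18, a zinc-finger transcription factor of the MYT1 family, had signals of 7.86 to 9.57 on the SUDHL-1 arrays (median 8.52) and of 2.81 to 3.70 on the others (median 2.99). The difference was 5.35 ± 0.27 (SE, 6 against 6 arrays; adjusted p = 1.94e-07), or 40.8-fold. Every SUDHL-1 array stood far above the highest other array, and DEL, Karpas299 and SUPM2 were alike at 2.90, 3.59 and 2.97. CLEC4D, a C-type lectin receptor otherwise known from myeloid cells, ranged from 8.50 to 9.71 in SUDHL-1 (median 9.11) and from 3.16 to 5.13 in the others (median 3.47), a difference of 5.31 ± 0.34 (adjusted p = 7.9e-07). Karpas299 SP held the highest other value. The related lectin genes CLEC4E and CLEC6A, looked up after these values were seen, were near background in both groups, with means of 2.79 and 3.06 in SUDHL-1, and did not pass the test.

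NRP1, the neuropilin-1 co-receptor for semaphorins and VEGF, had 8.54 to 9.79 in SUDHL-1 (median 8.78) and 3.84 to 5.27 in the other lines (median 4.38), a difference of 4.39 ± 0.27 (adjusted p = 6.52e-07). Of its ligands and partners, chosen after the values were seen, SEMA3A differed by 0.51 with overlap between the groups (0.08 with the deposited values; adjusted p = 0.171 with the line as a random block, by limma), PLXNA1 differed by 0.38 (-0.08 with the deposited values) without passing the test, and VEGFA was lower by 2.10. KIAA0825 had 7.39 to 7.91 against 3.53 to 5.03, a difference of 3.57 ± 0.20, and is measured by several probe sets, whose differences as deposited ranged from 1.37 to 3.31. ADAM22, a catalytically inactive metalloprotease-family receptor, had 7.38 to 8.37 against 3.74 to 5.34, a difference of 3.17 ± 0.28.

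**Figure D2:**
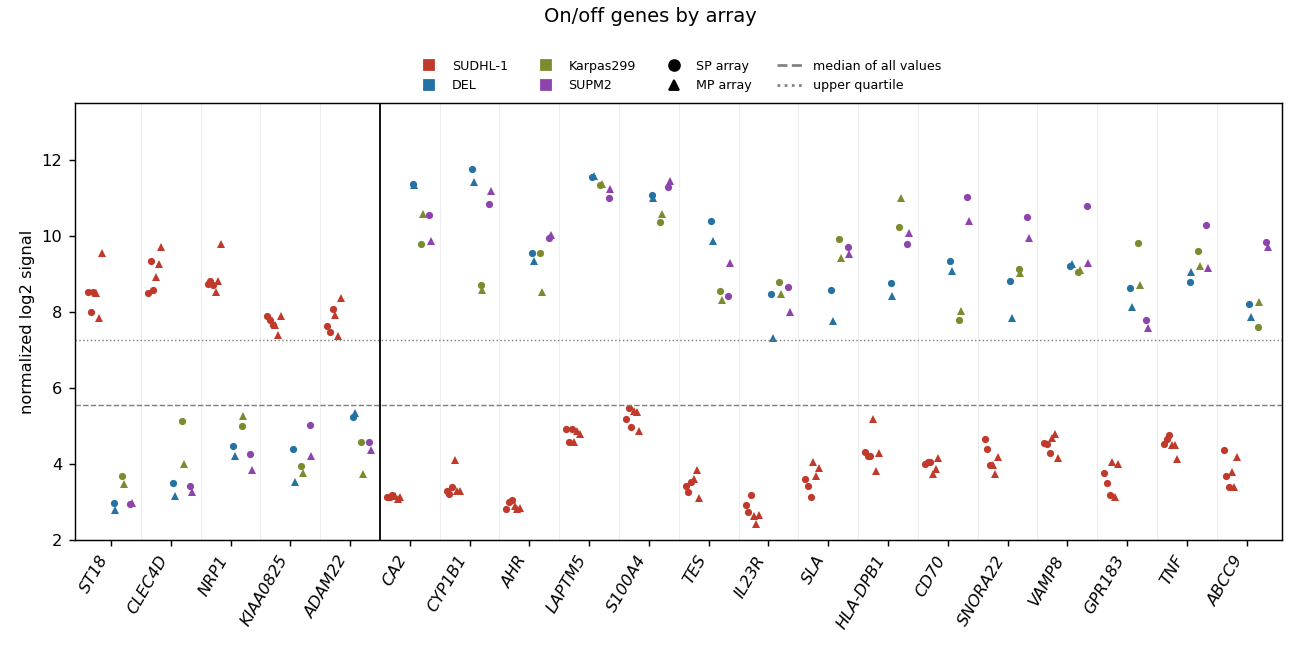
Normalized log2 signal on each of the 12 arrays (points; circles SP, triangles MP, colours the lines) for the 5 genes on in SUDHL-1 and the 15 off genes of largest difference, with dashed and dotted lines at the median (5.55) and upper quartile (7.27) of all values. Each gene has all 6 SUDHL-1 arrays on one side of both lines and all 6 other arrays on the opposite side.

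The aryl hydrocarbon receptor and its target CYP1B1 were both off in SUDHL-1. AHR encodes a ligand-activated transcription factor that pairs with ARNT and induces cytochrome P450 genes of the CYP1 family. AHR signals were 2.82 to 3.06 on the SUDHL-1 arrays (median 2.88) and 8.53 to 10.04 on the others (median 9.56). The difference was -6.59 ± 0.21 (adjusted p = 1.02e-08), or 96.2-fold. All 6 SUDHL-1 arrays were near the lowest signals of the array, and the other lines were alike. CYP1B1, a monooxygenase of xenobiotic and oestrogen metabolism, had 3.23 to 4.12 in SUDHL-1 (median 3.29) and 8.58 to 11.76 in the others (median 11.02), a difference of -6.99 ± 0.55 (adjusted p = 4.01e-06). Karpas299 held the lowest other values, at a mean of 8.66 against 11.60 in DEL and 11.02 in SUPM2.

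Further genes of this pathway were chosen after the values were seen. CYP1A1, the classical AHR target, had a mean of 3.37 in SUDHL-1 and of 5.29, 4.61 and 8.82 in DEL, Karpas299 and SUPM2, a difference of -2.86 ± 0.78 (adjusted p = 0.0119) that was -1.57 without SUPM2. NQO1, a quinone reductase with AHR-responsive elements, differed by -1.74 ± 0.27 (adjusted p = 0.000374). TIPARP, another target, did not pass the test at 0.62 (adjusted p = 0.0632), and ARNT, the partner, was near equal at -0.09 (0.03 with the deposited values). IL23R, the receptor chain for IL-23 of T helper 17 cells, was named by size of difference and not chosen for this pathway. It was also off, with 2.43 to 3.18 in SUDHL-1 against 7.33 to 8.81, a difference of -5.53 ± 0.18 (adjusted p = 1.02e-08).

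CA2, which encodes carbonic anhydrase II, showed the largest difference of all on/off genes. Its signals were 3.09 to 3.18 on the 6 SUDHL-1 arrays and 9.81 to 11.39 on the others, a difference of -7.46 ± 0.27 (adjusted p = 2.12e-08), or 176-fold. The membrane-bound relative CA12, chosen after its value was seen, was lower by 3.74 ± 0.18. LAPTM5, a lysosomal membrane protein of blood cells that promotes degradation of antigen receptors, had 4.59 to 4.94 in SUDHL-1 (median 4.83) and 11.02 to 11.58 in the others (median 11.37), a difference of -6.57 ± 0.12 (adjusted p = 5.79e-11). It is a gene of nearly all leukocytes, and its signal in SUDHL-1 was below the median of all genes. S100A4, a calcium-binding protein of motile cells, had 4.88 to 5.49 against 10.38 to 11.46, a difference of -5.75 ± 0.20.

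The other off genes named by size were spread over adhesion, traffic and signalling. TES, the LIM-domain protein testin of focal adhesions, differed by -5.68 ± 0.34. SLA, an adaptor that dampens T-cell receptor signalling, differed by -5.52 ± 0.34, with 3.15 to 4.07 against 7.78 to 9.93. VAMP8, a SNARE of endosomes and lytic granules, differed by -4.95 ± 0.27, and ABCC9, a subunit of ATP-sensitive potassium channels, by -4.78 ± 0.40. SNORA22, a small nucleolar RNA, differed by -5.06 ± 0.35. GPR183, the oxysterol receptor that positions lymphocytes, had 3.15 to 4.06 in SUDHL-1 against 7.59 to 9.82 in the others, a difference of -4.84 ± 0.35. These genes had adjusted p between 2.71e-07 and 5.93e-06. The off genes outside the naming rule, named after their values were seen, were IAH1, ANXA6, ST8SIA4, MGST2, GNA15, TPRG1, IRF5, PPP2R2B, TRAM2 and PGLS, with differences from -4.70 for IAH1 to -3.06 for PGLS. IRF5, an interferon regulatory factor, was alike in the other lines at 8.58, 8.42 and 8.55 and had a mean of 5.16 in SUDHL-1.

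MHC class II genes were lower in SUDHL-1 as a group. These genes encode the paired chains (DP, DQ, DR) that show peptides to helper T cells, the DM and DO proteins that load them, and CIITA, the co-activator that switches them on; activated human T cells express them. Of 12 measured genes of the list, 9 were lower (75%, beside 21.1% of all genes), 0 higher and 3 did not pass the test. Their median difference was -2.98, beside 0.01 over all genes. HLA-DRA, HLA-DRB1 and CD74 were not analysed here. HLA-DPB1 was an off gene, with 3.83 to 5.18 in SUDHL-1 (median 4.27) and 8.43 to 11.02 in the others (median 9.94), a difference of -5.37 ± 0.41 (adjusted p = 2.87e-06). The promoters of 4 genes of the list that fell are shown, since CIITA acts at promoters through a complex bound at X and Y boxes; each runs from 250 bases before the gene start to 50 after it, in the direction of the gene, from RefSeq (GRCh38.p14). Capitals mark an X box core (G, any base, AAC, any base, GATG) or a Y box core (GATTGG), found on either strand. All 4 promoters shown hold a match and do not stand for the list. HLA-DPA1 and HLA-DQA1, which differed by -5.01 and -5.09, had neither core in the same window.
HLA-DPB1 promoter, chr6:33075740-33076039, plus strand: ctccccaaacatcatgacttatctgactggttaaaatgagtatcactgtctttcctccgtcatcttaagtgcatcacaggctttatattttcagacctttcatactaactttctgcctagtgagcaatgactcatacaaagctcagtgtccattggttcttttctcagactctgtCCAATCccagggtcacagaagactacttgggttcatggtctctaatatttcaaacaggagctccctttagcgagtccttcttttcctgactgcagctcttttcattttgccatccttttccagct
HLA-DMA promoter, chr6:32953048-32953347, minus strand: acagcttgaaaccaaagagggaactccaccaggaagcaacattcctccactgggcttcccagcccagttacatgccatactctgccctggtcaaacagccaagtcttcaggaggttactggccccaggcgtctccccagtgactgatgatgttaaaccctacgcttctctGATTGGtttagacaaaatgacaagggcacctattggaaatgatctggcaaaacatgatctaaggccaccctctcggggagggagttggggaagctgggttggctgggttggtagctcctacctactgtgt
HLA-DMB promoter, chr6:32940979-32941278, minus strand: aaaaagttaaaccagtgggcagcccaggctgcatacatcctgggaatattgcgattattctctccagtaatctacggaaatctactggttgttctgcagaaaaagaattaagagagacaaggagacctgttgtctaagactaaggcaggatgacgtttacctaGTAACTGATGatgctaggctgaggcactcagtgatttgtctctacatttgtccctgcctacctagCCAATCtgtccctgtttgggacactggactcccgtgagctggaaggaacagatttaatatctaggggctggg
HLA-DOA promoter, chr6:33009542-33009841, minus strand: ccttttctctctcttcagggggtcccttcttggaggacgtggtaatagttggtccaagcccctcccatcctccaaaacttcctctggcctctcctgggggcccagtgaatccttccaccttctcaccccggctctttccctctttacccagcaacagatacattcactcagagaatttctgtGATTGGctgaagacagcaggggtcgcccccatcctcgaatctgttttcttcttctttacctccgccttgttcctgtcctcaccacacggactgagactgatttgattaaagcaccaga

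The X box core was found in 2 of 10 promoters of the list that RefSeq matched, HLA-DMB and HLA-DRB5, and in 0.67% of all 27305 promoters of the same length. The Y box core was found in 7 of 10 and in 15.7% of all promoters, and no 2 matches in a promoter shared a base. Both cores together occurred in 2 of 10 and in 0.121%. A match is a description of the letters and shows no binding.

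The remaining class II chains were named after their values were seen. HLA-DPA1, the partner chain of HLA-DPB1, had 6.50 to 7.73 in SUDHL-1 against 11.56 to 12.55 in the others, a difference of -5.01 ± 0.27 (adjusted p = 2.4e-07), so a signal well above the median of all genes remained in SUDHL-1. HLA-DMA, with 5.05 to 5.93 against 8.76 to 10.58, differed by -4.46 ± 0.28, and HLA-DMB, with 4.26 to 4.88 against 7.06 to 9.84, by -4.17 ± 0.38. These 3 genes separated the 6 SUDHL-1 arrays from the others without overlap. HLA-DQA1 differed by -5.09 ± 0.86 and HLA-DRB5 by -4.88 ± 0.79, also without overlap. Karpas299 was highest, with means of 11.36 and 10.33, against 7.22 and 6.12 in DEL and 6.90 and 6.85 in SUPM2, and leaving out 1 line or array gave differences no smaller than -3.66 and -3.59. DRB and DQ genes are near copies of their neighbours and vary between people, so these values are uncertain for 1 gene. HLA-DQB1 had a mean of 8.23 in Karpas299, against 3.39 in SUDHL-1, 3.98 in DEL and 3.29 in SUPM2, and did not pass the test.

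CIITA itself was lower by 1.24 ± 0.10 (adjusted p = 5.28e-06), with 4.74 to 5.24 in SUDHL-1 against 6.09 to 6.35 in the others. The DNA-binding partners of CIITA, looked up after the values were seen, went both ways: RFX5 differed by -0.87 (-0.53 without Karpas299) and RFXANK by -1.05, while RFXAP was higher by 1.88 ± 0.11 (adjusted p = 4.73e-07). NFYB was higher by 0.93, NFYC differed by -0.75, and NFYA did not pass the test. HLA-DOA and HLA-DOB, the DO chains, differed by -1.78 and -0.67. HLA-DOB overlapped between the groups and lost its call with the line as a random block. CTSS, a protease of the class II pathway, missed the threshold at -1.40 (adjusted p = 0.0501), and IFI30, the lysosomal thiol reductase, was near equal at -0.11 (0.13 with the deposited values).

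MHC class I genes showed smaller differences in the same direction. Of 16 measured genes, 11 were lower (68.8%, beside 21.1% of all genes) and 0 higher (beside 22.6%), with a median of -0.99. TAPBP, the tapasin that bridges the peptide transporter to class I, had 6.54 to 7.07 in SUDHL-1 against 10.13 to 10.76 in the others, a difference of -3.60 ± 0.16 (adjusted p = 1.1e-07). TAP1, a subunit of that transporter, had 6.87 to 7.52 against 8.96 to 10.16 and differed by -2.47 ± 0.17. Further members chosen after their values were seen were the proteasome subunit PSMB8 (-1.61), B2M, the light chain (-1.17), and NLRC5, the class I co-activator (-0.44). B2M remained among strong signals in SUDHL-1 at 9.78 to 10.51.

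**Figure D3:**
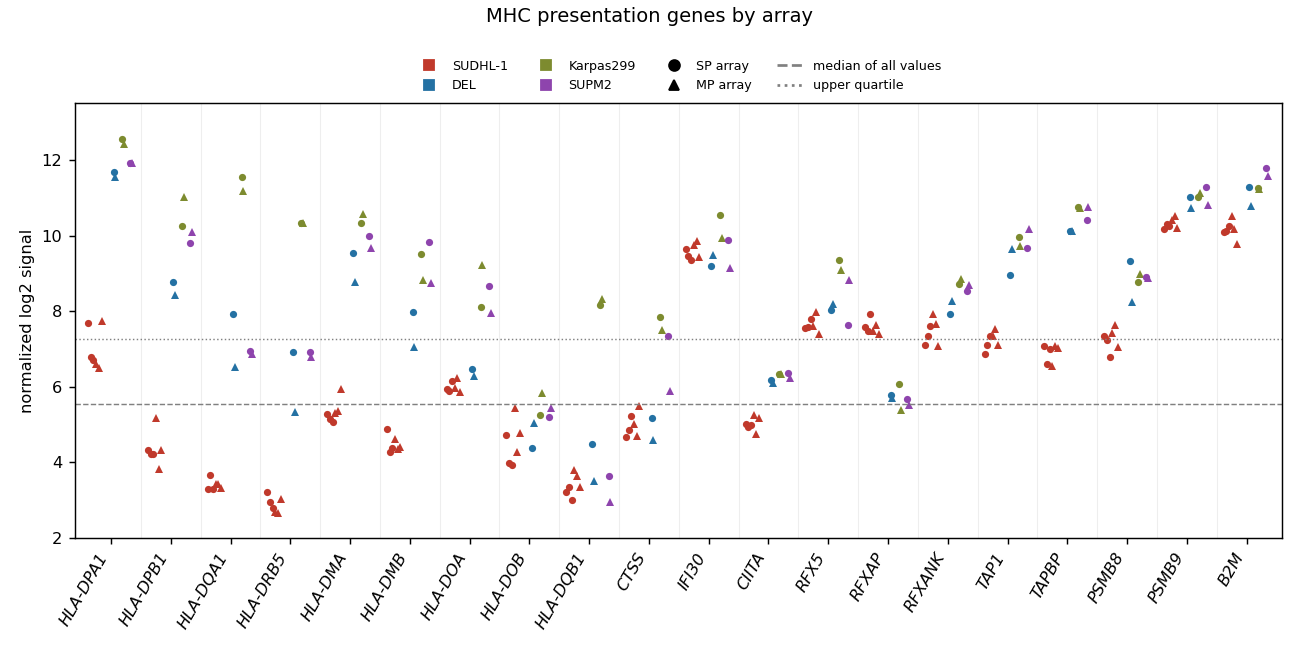
Normalized log2 signal on each array (circles SP, triangles MP, colours the lines) for MHC class II chains, loading factors, regulators and class I genes, with lines at the median and upper quartile of all values. SUDHL-1 points lie below all others for HLA-DPA1, HLA-DPB1, HLA-DMA, HLA-DMB, CIITA, TAP1 and TAPBP, and above them for RFXAP.

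T-lineage markers were used to check the label of the lines, and their levels differed from line to line. CD3D, part of the CD3 complex, had 9.18 to 10.41 in SUDHL-1, 9.69 in Karpas299 and 9.31 in SUPM2, with DEL low at 5.44, and the difference of 1.78 ± 0.83 did not pass the test. CD3E was near background in all 4 lines, at 3.52 in SUDHL-1 against 4.31, 4.20 and 4.14 in DEL, Karpas299 and SUPM2, a difference of -0.70 ± 0.14 (adjusted p = 0.00172). CD247, the zeta chain, had 4.24 to 4.42 in SUDHL-1, close to DEL (4.85) and below Karpas299 (7.43) and SUPM2 (8.45), a difference of -2.57 ± 0.65 (adjusted p = 0.00757). Of the 7 measured T-cell receptor and CD3 genes 1 was higher and 2 lower (14.3% and 28.6%, beside 22.6% and 21.1% of all genes).

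CD4, the helper co-receptor, had 3.72 to 4.29 in SUDHL-1 and 4.60, 9.66 and 9.71 in DEL, Karpas299 and SUPM2, a difference of -3.83 ± 1.02 (adjusted p = 0.0102). SUDHL-1 overlapped with DEL, and the call was lost without Karpas299, at -3.02. CD2 was near background in SUDHL-1 (3.78), DEL (4.20) and Karpas299 (4.23), high in SUPM2 (9.40), and missed the threshold (-2.17, adjusted p = 0.108); without SUPM2 it passed at -0.44, without Karpas299 at -3.05 and with the deposited values at -2.46. CD5 had means of 7.60 in SUDHL-1 and 6.19, 9.04 and 4.83 in the others, and CD7 of 7.03 against 6.96, 7.23 and 7.62; neither passed, except CD5 without Karpas299 (2.11) and CD7 with the deposited values (-0.49). CD8A was at 5.05 against 4.60, 4.59 and 4.53, a difference of 0.47 that fell to 0.0034 with the deposited values. CD28 at 0.11 did not pass and turned to -0.30 with the deposited values. ZAP70 at -1.05 passed without DEL (-1.64) and with the deposited values (-1.47). LCK, the T-cell kinase, differed by 0.36 (adjusted p = 0.0217), which turned to -0.10 with the deposited values and was not called without MP array 1, DEL or Karpas299.

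The surface antigens of the T lineage fell more than they rose, with a median of -0.46. Of 19 measured, 8 were lower (42.1%, beside 21.1% of all genes), 1 higher (5.26%, beside 22.6%) and 10 did not pass. CD96, an adhesion receptor of T and NK cells for the poliovirus receptor family, had 2.71 to 3.15 in SUDHL-1 against 7.17 to 9.04 in the others, a difference of -5.07 ± 0.27 (adjusted p = 2.4e-07). CD226, which shares that ligand and counts with the NK receptors, had 3.17 to 6.07 in SUDHL-1 against 7.81 to 10.35, a difference of -5.22 ± 0.52; its highest SUDHL-1 value came from MP array 3, and the other 5 arrays reached at most 3.58. DPP4 (CD26), named after its value was seen, was lower by 2.66 ± 0.37. PTPRC (CD45), the pan-leukocyte phosphatase, was strong in all lines, with 8.41 to 9.68 in SUDHL-1 against 10.09 to 10.63 in the others, a difference of -1.30 ± 0.17. CD44, the hyaluronan receptor, was the member that rose, with a mean of 10.25 against 8.83, 8.44 and 5.34, a difference of 2.71 ± 0.66 (adjusted p = 0.00653) that was 1.62 without SUPM2.

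Further genes known from leukocytes, picked after their values were seen and taken from no list, were lower in SUDHL-1 than in the other lines. ARHGDIB, a GTPase regulator of blood cells, had 2.87 to 3.72 against 6.87 to 10.91, a difference of -5.76 ± 0.64. INPP5D, the SHIP phosphatase, differed by -4.02 ± 0.35, RAC2, the blood-cell Rac, by -3.35 ± 0.15, MYO1G, a blood-cell myosin, by -3.38 ± 0.18, CORO1A by -2.79 ± 0.15 and CD53 by -2.53 ± 0.22. None of these 6 genes overlapped between the groups, but as they were picked on their values this is no separate result. RAC2 (7.50 to 8.39) and CD53 (7.93 to 9.14) were still above the upper quartile of all values on every SUDHL-1 array. LCP1, the leukocyte plastin, was at 11.56 in SUDHL-1 against 11.79, 11.96 and 11.80, a difference of -0.29 (0.29 with centred arrays).

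Markers of other cell types ranged from a B-cell list near background to single stromal and myeloid genes of strong signal. Of 19 measured B-cell genes, 0 exceeded the median of all values on all 6 arrays of either group, with mean list levels of 4.05 to 4.15 on the SUDHL-1 arrays and 4.16 to 4.45 on the others; 2 were higher and 4 lower. MS4A1 (CD20) was at 3.18 in SUDHL-1 and PAX5 at 5.12 against 4.87, 6.52 and 4.98, and neither passed the test. The B-cell members of largest difference were CD40, a TNF-family receptor, higher by 1.76 ± 0.09, and BANK1, lower by 1.74 ± 0.44. Of 30 myeloid genes, 6 exceeded that median on all SUDHL-1 arrays and 7 on all other arrays; 5 were higher and 9 lower, with list levels of 4.69 to 4.94 against 4.67 to 5.15, and CD14 (4.89) and MPO (3.94) were below the median of all values without passing the test, though CD14 passed without SUPM2 (0.56). Of 12 erythroid and platelet genes, 1 exceeded it in each group and 1 was lower, EPOR by 0.65. Of 25 stromal and epithelial genes, 6 exceeded it on all SUDHL-1 arrays and 5 on all others; 3 were higher and 4 lower, among them MUC1 (-2.62) and LGALS1, a galectin, at 10.41 in SUDHL-1 and 12.77 in the others (-2.35). The part of these markers in other results was not tested.

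Single myeloid and NK genes nevertheless stood high in SUDHL-1. CD163, the haemoglobin scavenger receptor of macrophages, had 8.23 to 11.32 in SUDHL-1 (median 8.92), with DEL close below at 7.79 and Karpas299 and SUPM2 at 3.52 and 3.37, a difference of 4.26 ± 0.95 (adjusted p = 0.00377). FCER1G, the signalling chain shared by Fc and NK receptors, had 10.43 to 11.17 in SUDHL-1 and 7.66, 8.66 and 3.81 in DEL, Karpas299 and SUPM2, a difference of 4.04 ± 0.90 (adjusted p = 0.00379) that was 2.59 without SUPM2. S100A9, a calcium-binding protein of neutrophils and monocytes, was lower by 2.69 ± 0.37. CD300A, an inhibitory receptor named after its value was seen, was higher by 2.99 ± 0.26, while KLRC1 differed by -3.09 and HCST, an NK adaptor, by -3.02. Of 21 NK receptors and adaptors, 4 were higher and 7 lower (19% and 33.3%, beside 22.6% and 21.1% of all genes).

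**Figure D4:**
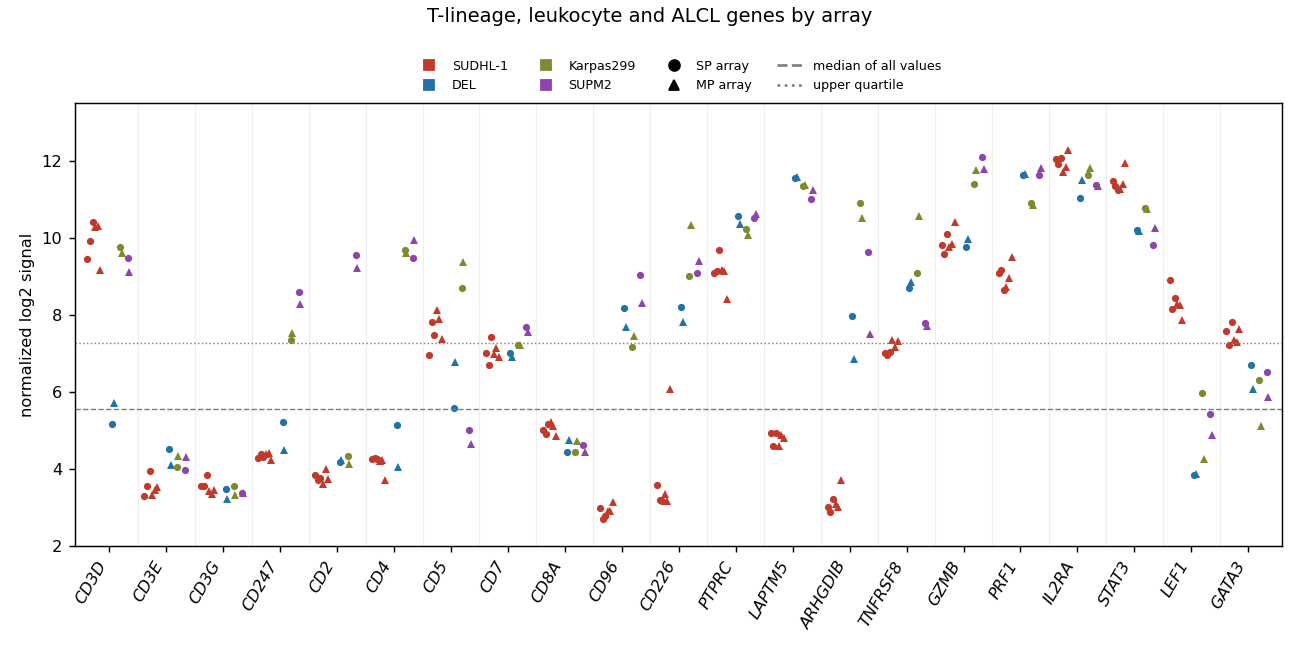
Normalized log2 signal on each array (circles SP, triangles MP, colours the lines) for T-cell, leukocyte, cytotoxic and ALCL genes, with lines at the median and upper quartile of all values. SUDHL-1 shares a high CD3D with Karpas299 and SUPM2 and a low CD4 with DEL, and lies apart from all 3 lines for CD96, LAPTM5, ARHGDIB and LEF1.

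Genes known for ALK-positive ALCL were mostly strong in all lines but often lower in SUDHL-1. Of 26 measured, 21 exceeded the median of all values on every SUDHL-1 array and 25 on every other array. Of the same 26, 15 were lower and 5 higher (57.7% and 19.2%, beside 21.1% and 22.6% of all genes), and 6 did not pass. Their median difference was -0.79 (-0.65 as deposited and -0.19 with centred arrays). TNFRSF8 (CD30), the defining antigen, had 6.95 to 7.35 in SUDHL-1 against 7.71 to 10.57 in the others, a difference of -1.64 ± 0.39 (adjusted p = 0.00561), with Karpas299 highest at 9.83. HTRA3, a secreted protease, was an off gene, with 5.11 to 5.40 against 7.88 to 10.09, a difference of -3.96 ± 0.39. NPM1 differed by 0.22 ± 0.08 (adjusted p = 0.045), a call lost without any 1 of the SUDHL-1 arrays or other lines, at 0.16 to 0.26. STAT3, the factor downstream of ALK, was higher: 11.25 to 11.95 against 9.81 to 10.79, a difference of 1.12 ± 0.18 (adjusted p = 0.000494). BCL2A1, an anti-apoptotic BCL2 relative, was higher by 2.05 ± 0.22.

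Of 15 cytotoxic granule genes, 9 exceeded the median of all values on every SUDHL-1 array and 8 on every other array. In SUDHL-1 8 were lower and 1 higher (53.3% and 6.67%, beside 21.1% and 22.6% of all genes), and 6 did not pass. PRF1, perforin, had a mean of 9.02 in SUDHL-1 and of 11.65, 10.87 and 11.74 in DEL, Karpas299 and SUPM2, a difference of -2.41 ± 0.21 (adjusted p = 8.02e-06). GZMB, granzyme B, had 9.93 against 9.88, 11.59 and 11.94, a difference of -1.21 ± 0.40 (adjusted p = 0.0302). Its call was lost in 4 of the 6 fits without 1 SUDHL-1 array, at -1.16 to -1.20, without Karpas299 or SUPM2, at -0.97 and -0.79, and with centred arrays, at -0.56. CST7, cystatin F of cytotoxic cells, was lower by 1.82 ± 0.29.

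Adhesion receptors were lower in SUDHL-1 more often than higher, with a median of -0.37. Of 52 integrins, selectins and adhesion molecules, 23 were lower and 8 higher (44.2% and 15.4%, beside 21.1% and 22.6% of all genes). With centred arrays 18 were lower and 11 higher, and with the line as a random block 12 and 5. ITGA4, the alpha chain of VLA-4 that binds VCAM-1, had 2.92 to 3.44 in SUDHL-1 against 6.65 to 9.49 in the others, a difference of -4.95 ± 0.37 (adjusted p = 2.53e-06). All 6 SUDHL-1 arrays were near background. CD9, a tetraspanin, had means of 3.71 in SUDHL-1 and 8.18, 7.12 and 4.84 in DEL, Karpas299 and SUPM2 (adjusted p = 0.00184). SELPLG, the ligand of P-selectin, and ITGAL, the LFA-1 alpha chain, named after their values were seen, were also lower (-2.38 and -2.32). Higher in SUDHL-1 were JAM2 (1.90) and ITGB4 (1.85).

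Among cytokine receptors, 19 of 46 were lower and 5 higher (41.3% and 10.9%, beside 21.1% and 22.6% of all genes), with a median of -0.44. Besides the off gene IL23R, the receptors for IL-2 and IL-15 split: IL2RA (CD25) was strong in all lines at 11.98 against 11.27, 11.74 and 11.36, a difference of 0.52 ± 0.14 (adjusted p = 0.0111). Its call was lost with the line as a random block (adjusted p = 0.0923 by limma). IL2RB, the shared beta chain, had 8.40 to 9.50 in SUDHL-1 against 10.87 to 11.59 in the others, a difference of -2.61 ± 0.19, and IL15RA differed by -2.49 ± 0.20. IL1RL1, the IL-33 receptor, was higher by 2.65 ± 0.22. IL2RB, IL15RA and IL1RL1 were chosen after their values were seen. Among 43 cytokines, 5 were higher and 9 lower (11.6% and 20.9%, beside 22.6% and 21.1% of all genes), or 10 and 8 with centred arrays. IL7, a growth factor of lymphocytes, had 2.57 to 2.82 in SUDHL-1 against 5.74 to 7.55 in the others, a difference of -3.80 ± 0.21 (adjusted p = 3.24e-07). SPP1, osteopontin, was higher by 2.58 ± 0.56, with overlap between the groups. The call of SPP1 was lost with SP arrays alone, at 1.28, and with the line as a random block.

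In the TNF family, 15 of 42 genes were lower and 7 higher (35.7% and 16.7%, beside 21.1% and 22.6% of all genes). Its ligands TNF and CD70 were off. TNF, the inflammatory cytokine, had 4.13 to 4.78 in SUDHL-1 (median 4.53) and 8.80 to 10.29 in the others (median 9.19), a difference of -4.83 ± 0.20 (adjusted p = 6.68e-08). CD70, the ligand of CD27, had 3.75 to 4.16 against 7.79 to 11.04, a difference of -5.30 ± 0.49 (adjusted p = 1.16e-05). Both ligands left a gap of over 3 log2 units between the groups. CD27, the receptor of CD70, was below the median of all values at 4.92 in SUDHL-1 and did not pass the test. The receptors TNFRSF21 and TNFRSF9 (4-1BB), named after their values were seen, were higher by 2.95 ± 0.33 and 2.84 ± 0.48, the latter with 6.66 to 10.39 across the SUDHL-1 arrays.

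Of 55 chemokines and their receptors, 11 were higher and 9 lower (20% and 16.4%, beside 22.6% and 21.1% of all genes), or 6 and 29 with the deposited values. CCL20, the ligand of CCR6, had 10.52 to 11.10 in SUDHL-1 and 8.61, 6.52 and 3.17 in DEL, Karpas299 and SUPM2, a difference of 4.69 ± 0.96 (adjusted p = 0.00234). CCR7, the lymph-node homing receptor, was low in SUDHL-1 (5.40 to 5.75) and SUPM2 (5.57) and high in DEL (10.22) and Karpas299 (10.48), a difference of -3.14 ± 0.95 (adjusted p = 0.0194). Its call was lost without DEL (-2.45) or Karpas299 (-2.31). Of 36 G protein-coupled receptors of lymphocytes, 14 were lower and 3 higher (38.9% and 8.33%, beside 21.1% and 22.6% of all genes). Beside GPR183, the thrombin receptor F2R differed by -4.77 ± 0.81 and PTGER4, a prostaglandin receptor, by -2.57 ± 0.20, both chosen after their values were seen.

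**Figure D5:**
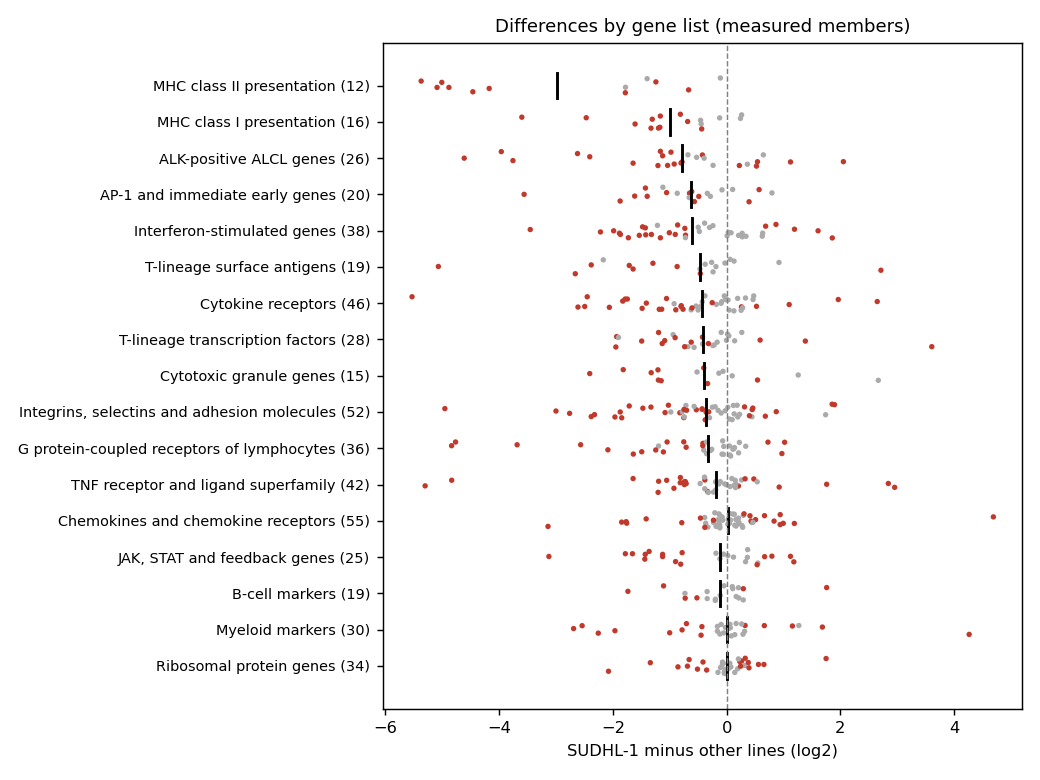
Difference between SUDHL-1 and the other lines (log2, horizontal axis) for each measured gene of 17 lists (points; red where the limma adjusted p was under 0.05), with a black bar at the list median and a dashed line at the median of all genes. MHC class II genes have the lowest median at -2.98, and ribosomal protein genes lie at 0.00 (0.47 with centred arrays).

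JAK and STAT genes differed in both directions. Of 25 measured, 11 were lower and 5 higher (44% and 20%, beside 21.1% and 22.6% of all genes). JAK3, the kinase of the common gamma chain, was lower by 1.78 ± 0.22, and PIM2, a STAT-induced survival kinase, had 5.15 to 6.72 in SUDHL-1 against 7.37 to 9.79, a difference of -3.13 ± 0.40 (adjusted p = 0.000107). Genes added after their values were seen were JAK1 (-1.36), STAT6 (-1.44), STAT4 (-1.66), SOCS2 (-1.43) and SOCS3 (-1.13), against SOCS6 at 1.18. STAT3 was the STAT gene that rose. STAT2 was not analysed here.

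JUNB stood out among AP-1 and immediate early genes, which had a median of -0.63. Of these, 10 of 20 were lower and 2 higher (50% and 10%, beside 21.1% and 22.6% of all genes). JUNB had 7.62 to 8.70 in SUDHL-1 (median 8.07) and 11.36 to 12.05 in the others (median 11.54), a difference of -3.56 ± 0.19 (adjusted p = 2.21e-07), or 11.8-fold. It was still above the upper quartile of all values on every SUDHL-1 array. IER3, a stress-response gene, was lower by 1.87 ± 0.33. The other JUN and FOS genes, named after their values were seen, were JUND (-1.62), FOSL2 (-1.43) and JUN (-1.40, or -0.90 without SUPM2), while FOSB and MYC did not pass the test.

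The ERK output genes included 6 lower and 2 higher of 21 (28.6% and 9.52%, beside 21.1% and 22.6% of all genes), or 5 and 3 with centred arrays. DUSP7, an ERK phosphatase, was lower by 1.40 ± 0.24 and CXCL8, a neutrophil chemokine, also lower (-1.42 ± 0.44, or -0.74 without DEL). Of 24 adaptors downstream of ALK, 8 were lower and 3 higher (33.3% and 12.5%), or 4 and 4 with centred arrays. GRB2, which links receptors to RAS, was lower by 1.86 ± 0.11 (adjusted p = 5.65e-07), and CBLB, a ubiquitin ligase, by 1.27 ± 0.38, a call lost without DEL (-1.26) or SUPM2 (-0.93) and with centred arrays (-0.85). Of 41 receptor tyrosine kinases, 8 were lower and 6 higher (19.5% and 14.6%, both below the shares of all genes), or 25 and 3 with the deposited values. MET, the receptor of hepatocyte growth factor, had 3.95 to 4.43 in SUDHL-1 against 7.21 to 8.21 in the others, a difference of -3.49 ± 0.17 (adjusted p = 1.8e-07). EPHB4, an ephrin receptor, was higher by 1.05 ± 0.11. Of 25 NF-kB pathway genes, 9 were lower and 3 higher (8 and 7 with centred arrays), with ICAM1, a target, lower by 1.71 ± 0.24.

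Interferon-stimulated genes were lower in 17 and higher in 5 of 38 (44.7% and 13.2%, beside 21.1% and 22.6% of all genes), with a median of -0.61. MX1, an antiviral GTPase, had 3.55 to 3.70 in SUDHL-1 against 6.20 to 8.35 in the others, a difference of -3.45 ± 0.36 (adjusted p = 2.38e-05). LGALS3BP, a secreted glycoprotein, differed by -2.22 ± 0.70 (adjusted p = 0.0228), a call lost without DEL (-2.08) or SUPM2 (-1.34). The members were not uniform, as values picked after they were seen show: ISG15 (-1.87), IRF9 (-1.73) and IRF7 (-0.74) were lower, and SAMD9 (1.86) and HERC5 (1.61) higher. Of 28 immune checkpoint genes, 8 were higher and 4 lower (28.6% and 14.3%), a split that turned to 2 and 10 with the deposited values. Members included ICOS, a co-stimulatory receptor, higher by 2.20 ± 0.33 and CD86, a co-stimulatory ligand, lower by 2.46 ± 0.38. CD274 (PD-L1), a STAT3 target in ALCL, did not pass the test at 9.27 against 9.75, 9.91 and 9.32.

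Transcription factors of the T lineage were lower in 11 and higher in 3 of 28 (39.3% and 10.7%, beside 21.1% and 22.6% of all genes). With centred arrays 7 were lower and 5 higher, and with the line as a random block 4 and 2. LEF1, the WNT-responsive factor of early T cells, had 7.86 to 8.90 in SUDHL-1 (median 8.27) and 3.83 to 5.98 in the others (median 4.57), a difference of 3.61 ± 0.33 (adjusted p = 9.75e-06). It narrowly missed the on rule through Karpas299 SP at 5.98, above the median of all values. ETS1, a T-cell ETS factor, was lower by 1.95 ± 0.31. GATA3, the factor of T helper 2 cells, was higher by 1.38 ± 0.20 and RUNX3, of cytotoxic cells, lower by 1.93 ± 0.17, both chosen after their values were seen.

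Of 49 WNT and Hedgehog genes, 11 were higher and 10 lower (22.4% and 20.4%, near the shares of all genes), or 4 and 29 with the deposited values. LRP6, a WNT co-receptor, was higher by 2.62 ± 0.54, and of the feedback targets looked up after LEF1 was seen, AXIN2 was higher by 1.34 ± 0.11 and NKD1 by 0.72 ± 0.12. GLI3, a Hedgehog factor, was lower by 2.04 ± 0.31. Of 28 NOTCH pathway genes, 10 were lower and 2 higher (35.7% and 7.14%, beside 21.1% and 22.6% of all genes). The fringe gene MFNG was lower by 2.25 ± 0.40 and NOTCH2 by 1.69 ± 0.38. Among 28 early thymocyte and progenitor genes, 6 were higher and 7 lower (21.4% and 25%, near the 22.6% and 21.1% of all genes). HHEX, a homeobox factor of blood progenitors, had 6.68 to 7.48 against 3.85 to 4.58, a difference of 2.91 ± 0.14 (adjusted p = 1.72e-07), and MYB, a progenitor factor, had 6.45 to 7.23 against 8.22 to 10.11, a difference of -2.49 ± 0.33. Of 36 HOX and paired homeobox genes, 11 were higher and 5 lower, which turned to 3 and 17 with the deposited values, with HOXC11 and HOXC9 higher by 1.24 and 1.16.

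Some secreted proteins were picked from the largest differences after their values were seen and stand for no list. FGB, the fibrinogen beta chain, had 10.53 to 11.80 in SUDHL-1 and means of 5.29, 8.22 and 3.11 in DEL, Karpas299 and SUPM2, a difference of 5.66 ± 0.91 (adjusted p = 0.000488). The partner chains FGA (1.10) and FGG (0.99) were below the median of all values, with means of 3.91 and 4.44 in SUDHL-1. FGF9, a fibroblast growth factor, had 8.86 to 10.36 against 3.73 to 6.50, a difference of 4.75 ± 0.42. SERPINB4 and SERPINB3, neighbouring and nearly identical protease inhibitors whose signals may be shared, were higher by 4.04 and 3.34, while SLPI, a secreted protease inhibitor, was lower by 4.61 ± 0.76. Of 36 protease inhibitors and secreted proteases, 4 were higher and 11 lower (11.1% and 30.6%, beside 22.6% and 21.1% of all genes).

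Efflux and survival genes differed in part. Of 24 ABC transporters, 7 were lower and 2 higher (29.2% and 8.33%, beside 21.1% and 22.6% of all genes). ABCG2, a pump of Hoechst dye that defines the side population, was near background at 3.94 in SUDHL-1 and 4.04 in SUPM2 against 5.05 in DEL and 6.48 in Karpas299, a difference of -1.25 ± 0.45 (adjusted p = 0.0433). The call was lost without any 1 of the 6 SUDHL-1 arrays, at -1.17 to -1.34, without DEL (-1.31) and without Karpas299 (-0.61). Of 29 BCL2 family and death genes, 6 were higher and 3 lower (5 and 11 with the deposited values), with PMAIP1, a pro-apoptotic member, lower by 2.06 ± 0.42. Of 28 cell cycle inhibitors and p53 genes, 5 were higher and 6 lower (6 and 3 with centred arrays); CDK6 was higher by 2.46 ± 0.27, PLK2, a p53 target, by 3.13 ± 0.31, and CDKN2A differed by -0.52 ± 0.12. The call of CDKN2A was lost with the line as a random block (adjusted p = 0.0775 by limma) and with centred arrays (-0.32).

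Of 37 cancer-testis and germline genes, 8 were higher and 4 lower (21.6% and 10.8%), which turned to 1 and 15 with the deposited values. They were led by LIN28B, a regulator of let-7 RNAs, higher by 2.84 ± 0.30, with SPANXB1 lower by 1.58 ± 0.47 (-0.88 without DEL). Among 19 DNA methylation and Polycomb genes, 4 were higher and 4 lower (21.1% each, near the 22.6% and 21.1% of all genes). EED and EZH1 were both higher by 1.69. Of 18 aldehyde dehydrogenases, 5 were higher and 4 lower (1 and 7 with the deposited values), with ALDH18A1 higher by 1.22 and ALDH8A1 lower by 1.12.

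Counts for genes that every cell uses moved with the scaling. Ribosomal protein genes had a median of 0.00, with 9 higher and 8 lower of 34, or 0.47 with 26 higher and 2 lower with centred arrays; RPL13 was lower by 2.08 ± 0.11 and RPL32 higher by 1.75 ± 0.23. Widely expressed reference genes had a median of -0.14, which was 0.28 relative to all genes with the deposited values, with 4 higher and 8 lower of 20 (10 and 4 with centred arrays); PGK1 was lower by 1.81 and HPRT1 higher by 1.26. Nuclear respiratory chain genes had 7 higher and 7 lower of 24 (14 and 3 with centred arrays), with UQCRC1 lower by 2.53 and SDHC by 1.84.

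Small nucleolar RNAs, which guide chemical changes of ribosomal RNA and are mostly cut from introns, were higher in SUDHL-1 as a class. Of 175 measured, 79 were higher and 3 lower (45.1% and 1.71%, beside 22.6% and 21.1% of all genes), with a median of 0.69. With the line as a random block 30 were higher and 1 lower. Their mean level was 5.26 to 5.92 on the SUDHL-1 arrays and 4.37 to 4.95 on the others, without overlap. The mean of protein-coding genes was 5.91 to 5.93 on all arrays. As 16902 of the 18417 genes are protein-coding, the second quantile normalization nearly fixes that mean, so it is no control. Of the 38 genes at least 8-fold higher, 11 were of this class. SNORD54, with means of 8.21 against 4.31, 4.34 and 2.60, SNORD117 and SNORD58A were higher by 4.46, 4.13 and 4.11 and were chosen after their values were seen. The class kept this direction with the deposited values (median 0.41) and with centred arrays (0.87). Here too, a difference of the line and a difference of its array set cannot be told apart. MicroRNA genes had a median of 0.06, with 27 higher and 22 lower of 173 (12 and 55 with the deposited values).

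Genes that differed lay together at some loci in the RefSeq gene order. The longest runs of neighbouring measured genes all called in one direction held 10 genes. On chromosome 6, PSMB8, TAP1, PSMB9, HLA-DMB, HLA-DMA, BRD2, HLA-DOA, HLA-DPA1, HLA-DPB1 and HLA-DPB2 were all lower, with a median of -2.13; BRD2, a bromodomain gene that presents no antigen, differed by -1.03. On chromosome 10, 10 genes from PDE6C to CYP2C8 were all higher, with a median of 1.12, among them NOC3L (2.67) and HELLS (2.28, or 1.40 without SUPM2). On chromosome 17, 9 genes from LRRC45 to CSNK1D were all lower, with a median of -1.60, among them FASN, fatty acid synthase (-2.01). These genes were chosen after their values were seen, and copy number was not measured.

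SUDHL-1 was also compared with the other lines within each sorted population. With SP arrays alone 1864 genes were higher and 1727 lower, and with MP arrays alone 1718 and 1633, in fits of 3 against 3 arrays. Of the 95 called genes named by rule, 21 lost their call with SP arrays alone and 27 with MP arrays alone. The interaction of line and population passed adjustment with limma at 0 of 18417 genes and at 361 by unadjusted p under 0.05; with 1 SP and 1 MP array per other line, this does not show that the populations are alike. AHR had means of 2.97 in SUDHL-1 SP and 2.86 in SUDHL-1 MP cells, LAPTM5 of 4.82 and 4.75, HLA-DPB1 of 4.26 and 4.44, and CLEC4D of 8.82 and 9.31. All 21 on/off genes named by rule kept a limma adjusted p under 0.05 in each alternative except 1 mean per line. As they had been selected on the same arrays, this is no independent check of them. The level limits of the rule were met by 4 on genes in place of 5 with the deposited values and with probe sets averaged.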

How the data were processed

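The files hold 12 columns of log2 signals per probe set, which the authors made with RMA, per the submitters' processing notes; no version is named, nor whether RMA was run on the 12 arrays at once. RMA is a background correction, a quantile normalization of probes and a summary per probe set. All 12 columns were used and 0 left out. Of 33297 probe sets, 19460 had 1 gene symbol in the platform annotation, 1754 several and 12083 none; 19429 of the 19460 matched RefSeq (GRCh38.p14) by Entrez identifier, 0 symbols were updated, and those with several symbols were set aside. The probe set of highest mean stood for each of the 769 genes with several, leaving 18417 genes, which were quantile normalized again.

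Differences were fitted with limma 3.58.1 in R 4.3.3 over the 12 arrays (SUDHL-1 indicator and population; 9 residual degrees of freedom) with Benjamini-Hochberg adjustment over all genes at 0.05; the script was tested on simulated data. Errors are standard errors of the fitted difference with 6 against 6 arrays, and group means are given per line. Arrays carry no read depth, so their number limits the precision.

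The members and gene lists were chosen with earlier results of these data known. The text names up to 15 on/off genes per direction by size, up to 6 on/off members per list and direction, for lists without one the 2 members of largest difference that passed (or of smallest p), and 22 genes always named; other genes were chosen after their values were seen. Of the 104 genes named by the rule, 95 passed the threshold. Alternatives were the deposited and the centred values, a filter on dim genes, averaged probe sets, robust trended variance, blocks, 1 mean per line, either population alone and leaving out arrays or lines.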

Additional observations from a re-analysis of the deposited data

Results flagged for a closer look

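Among 104 genes tested, 11 had 1 SUDHL-1 array far from the other 5 by Dixon's criterion for 6 samples (gap over range above 0.625), and chance flags about 1 in 20 groups. Of these, 6 were on MP array 3. CD163 was at 11.32 there against 8.23 to 9.08 on the other 5 arrays, CD226 at 6.07 against 3.17 to 3.58, and NRP1 at 9.79 against 8.54 to 8.83. STAT3 was at 11.95 against 11.25 to 11.49, EED at 8.51 against 8.82 to 8.98, and CD4 at 3.72 against 4.20 to 4.29. On MP array 1, CYP1B1 was at 4.12 against 3.23 to 3.39 and HLA-DPB1 at 5.18 against 3.83 to 4.32. On MP array 2, LIN28B was at 4.02 against 5.42 to 6.15 and SPANXB1 at 3.17 against 2.71 to 2.84. On SP array 3, JAK3 was at 5.87 against 6.45 to 6.61. For CD163, CD226, CD4, NRP1, STAT3, EED, CYP1B1, HLA-DPB1 and JAK3, each of these values lay outside the range of the other lines.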

How the results depend on the processing

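All 21 on/off genes named by the rule kept an adjusted p under 0.05 in 18 of 19 alternatives, the exception being 1 mean per line, which left 0 genes in each count (3494 at an unadjusted p under 0.05 by limma). Of 1799 values of the 95 called genes under alternatives, 197 lost the call, 95 of them with 1 mean per line, and 1 reversed. Genes higher and lower in SUDHL-1 numbered 4162 and 3881; they were 2628 and 8427 with the deposited values, 2103 and 2080 with the line as a random block (correlation 0.292), 1864 and 1727 with SP arrays alone and 1718 and 1633 with MP arrays alone, fits with fewer samples. Leaving out 1 SUDHL-1 array gave 3751 to 3918 higher, 3417 to 3636 lower, 5 to 5 on and 26 to 32 off. On genes numbered 10 with MP arrays alone, 10 without DEL, 14 without Karpas299 and 3 with a difference of at least 4; off genes numbered 44 with SP arrays alone and 40 without DEL. Genes at least 8-fold higher without overlap (38), a count added after seeing the data, numbered 70 without DEL, 73 without Karpas299 and 75 with centred arrays. With centred arrays 80 genes were at least 8-fold lower.

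The labels number the SUDHL-1 SP and MP arrays 1 to 3, but these numbers did not pair the samples: correlations of their deviations were -0.00863, -0.0483 and -0.125. With the SP and MP array of 1 line and replicate number as a random block (correlation 0.202), 3674 genes were higher and 3418 lower, with 5 on and 26 off. For DEL, Karpas299 and SUPM2 this block was the line itself, so the correlation is not of replicate numbers alone.

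Among the 104 genes named by rule, differences that changed sign were LCK (-0.10), CD28 (-0.30), MS4A1 (-0.22), CD14 (-0.17) and MPO (-0.29) with the deposited values, CD28 (-0.13) and CD14 (-0.14) with MP arrays alone, CD28 (-0.035) and CD5 (-0.0033) without SUPM2, and PAX5 (0.19) without Karpas299; the cause was not tested. Of these, LCK had been called. Among genes named after their values were seen, ARNT (0.03), IFI30 (0.13), MYC (0.13), PLXNA1 (-0.08), CD27 (-0.34) and CLEC4E (-0.07) changed sign with the deposited values and LCP1 (0.29), CD274 (0.28), CLEC6A (0.05) and NFYA (0.30) with centred arrays, of which LCP1 had been called. Signals of off genes such as AHR and CA2 in SUDHL-1 lay near array background, which limits how large a difference the arrays can show. Other off genes, such as HTRA3 at 5.11 to 5.40 and IRF5 at 4.98 to 5.31, lay just under the median of all values.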

Other observations

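Genes at least 8-fold lower in SUDHL-1 that no list held, named after their values were seen, included TM6SF1 (2.73 in SUDHL-1 against 7.10, 8.58 and 10.08 in DEL, Karpas299 and SUPM2), DNAJC15, a mitochondrial co-chaperone (4.39 against 8.66, 9.45 and 10.37), and APP, the amyloid precursor (3.41 against 10.95, 4.57 and 9.72). GSTM1, a glutathione transferase that many people lack, was at 3.73 in SUDHL-1 and 5.69, 9.89 and 8.41 in the others. STAG2, a cohesin subunit, was at 3.28 against 5.14, 7.48 and 7.31, a difference of -3.36 ± 0.46, and its relative STAG1 was higher by 1.08 ± 0.19. HLTF, a helicase-like factor, was at 2.66 against 8.93, 7.80 and 5.31.

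Among genes higher in SUDHL-1, picked after their values were seen, POLA1, the catalytic subunit of DNA polymerase alpha, had means of 10.18 in SUDHL-1 and 7.32, 7.86 and 5.06 in the others, and FANCB, of the Fanconi anaemia complex, 8.48 against 5.74, 6.41 and 3.90. Taking each line in turn against the remaining 3, 140 genes were at least 8-fold apart without overlap for SUDHL-1, 42 for DEL, 53 for Karpas299 and 94 for SUPM2. SUDHL-1 entered this count with 6 arrays and the other lines with 2 each, so the counts are not on an equal footing.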
